A study of Mus musculus with 6 samples.

Results

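The genes for the proteins of the large (60S) subunit of the cytosolic ribosome were examined in flow-sorted cones of the rd1TN-XL mouse. They were taken from the raw count table by symbol, as Rpl followed by a number, with the endings a, l and l1, or as Rplp0 to Rplp2, without rows named as pseudogenes. This gave 52 of the 46078 genes in the table. All 52 were found by their Ensembl ID in GENCODE M21 (GRCm38), which lists 51 as protein coding and Rpl6l as a processed pseudogene. Rpl6l was kept, since its symbol fits the pattern.

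In the rd1 mouse a mutation of Pde6b, the rod-specific phosphodiesterase, kills the rods, and the cones degenerate after them. The cones of this line carry the calcium sensor TN-XL, driven by the human red opsin promoter, which allowed them to be sorted by fluorescence. Explants with their pigment epithelium were set up at PN19 and kept for 7 days in medium with 10 nM TSA (trichostatin A, an inhibitor of histone deacetylases) or with the same amount of DMSO. The TSA and the DMSO group each had 3 libraries, each from at least 2 explants of different animals and 2000 to 5000 sorted cells. The source names of all samples give a harvest at P26, but the time labels run over PN29, PN30 and PN31 for TSA replicates 1 to 3 and over PN26, PN27 and PN28 for DMSO replicates 1 to 3. Taken at their word, those labels would put every TSA library at a later age, and age cannot be told apart from treatment.

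The libraries held 12088800 to 12734097 gene counts with TSA and 9135389 to 13650676 with DMSO. Between 6974 and 10795 genes were over 1 CPM (counts per 1000000 counts) in TSA libraries and between 6690 and 8837 in DMSO libraries. Cone markers took 3.54 to 5.65% of the counts with TSA and 3.75 to 6.14% with DMSO, and 14 of 14 were measured. Rod markers took 1.17 to 1.74% with TSA and 1.69 to 2.39% with DMSO, 9 of 15 being measured, most of it from Gngt1, Pde6g and Sag, while the rod transcription factors Nrl and Nr2e3 had at most 1 count in any library. Müller glia markers took 0.186 to 1.71% with TSA and 0.165 to 0.373% with DMSO, 10 of 13 being measured. Microglia markers took 0.00839 to 0.301% with TSA and 9.77e-05 to 0.0195% with DMSO, 4 of 13 being measured. Both upper ends belonged to TSA replicate 1, which also had the most genes over 1 CPM. The part of these other cells in the levels below was not tested, and the main values without this library are given below.

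The large subunit joins amino acids into protein, and its RNA is held by one copy each of most of the proteins described here. A flexible stalk of Rplp0, Rplp1 and Rplp2 recruits the translation factors. The mRNAs of these proteins are among the most abundant of a cell. They typically begin with a run of C and T bases, the 5' terminal oligopyrimidine (TOP) tract, through which the mTOR pathway sets how well they are translated, so that the mRNA level does not give the rate of protein synthesis.

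At the annotated starts, such a run was common but was not found for every gene. As examples, 5 starts with a run of at least 10 bases are shown beside that of Rpl41, the most abundant transcript, where no such run was found. The sequences are from RefSeq on GRCm38.p6, each with 20 bases before and 30 from the annotated start onwards. Capitals mark the longest run of C and T.
Rpl15 (chr14:18270957-18271006, minus strand): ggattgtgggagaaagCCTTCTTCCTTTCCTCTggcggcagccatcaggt
Rpl35 (chr2:39005102-39005151, minus strand): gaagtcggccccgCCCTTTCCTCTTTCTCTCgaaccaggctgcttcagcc
Rpl35a (chr16:33056462-33056511, plus strand): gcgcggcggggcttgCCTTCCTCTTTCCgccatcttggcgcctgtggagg
Rpl38 (chr11:114668560-114668609, plus strand): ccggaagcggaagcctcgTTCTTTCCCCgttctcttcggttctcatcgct
Rplp2 (chr7:141447631-141447680, plus strand): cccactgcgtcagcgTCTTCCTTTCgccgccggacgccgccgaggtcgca
Rpl41 (chr10:128549139-128549188, minus strand): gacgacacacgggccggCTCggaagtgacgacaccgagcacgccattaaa

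In each of the 5 the run spans the annotated start itself. It also does so in Rpl28, with a run of 11 bases that is not shown. In Rpl22l1 the run begins after the start and in Rpl4 it ends before it. Within 50 bases on either side of the start, the letters CTTTC on the sense strand were found in 24 of the 39 genes with an entry (61.5%), against 14.6% of 27025 genes with one. The letters CTTCC were found in 15 of the 39 (38.5%), against 22.2% of all. At least one of both was found in 29 (74.4%), against 32.5%. CGGAAG, read on both strands, was found in 13 (33.3%), against 10.4%. These are matches of letters only, and an annotated start can lie some bases from the one used in cones. A missing run or match therefore does not show that an mRNA lacks the tract.

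Of the 52 genes, 49 passed the filter on low counts, set at 1 CPM and to be exceeded in 2 or more libraries of a group. The other 3 were paralogs known from other tissues. Rpl10l and Rpl39l, both known from the testis, had 0 counts in all 6 libraries, and Rpl3l, known from muscle, had 0, 0 and 1 count with TSA and 0, 1 and 1 with DMSO. Among the 49, none had a library at 0, which was the case for 37.9% of the 9621 genes tested. Most of the 49 genes were abundant, and their median stood at percentile 93.9 of the mean CPM of all genes tested, but Rpl24 and Rpl6l stood at percentiles 14.03 and 19.6.

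**Figure D1:**
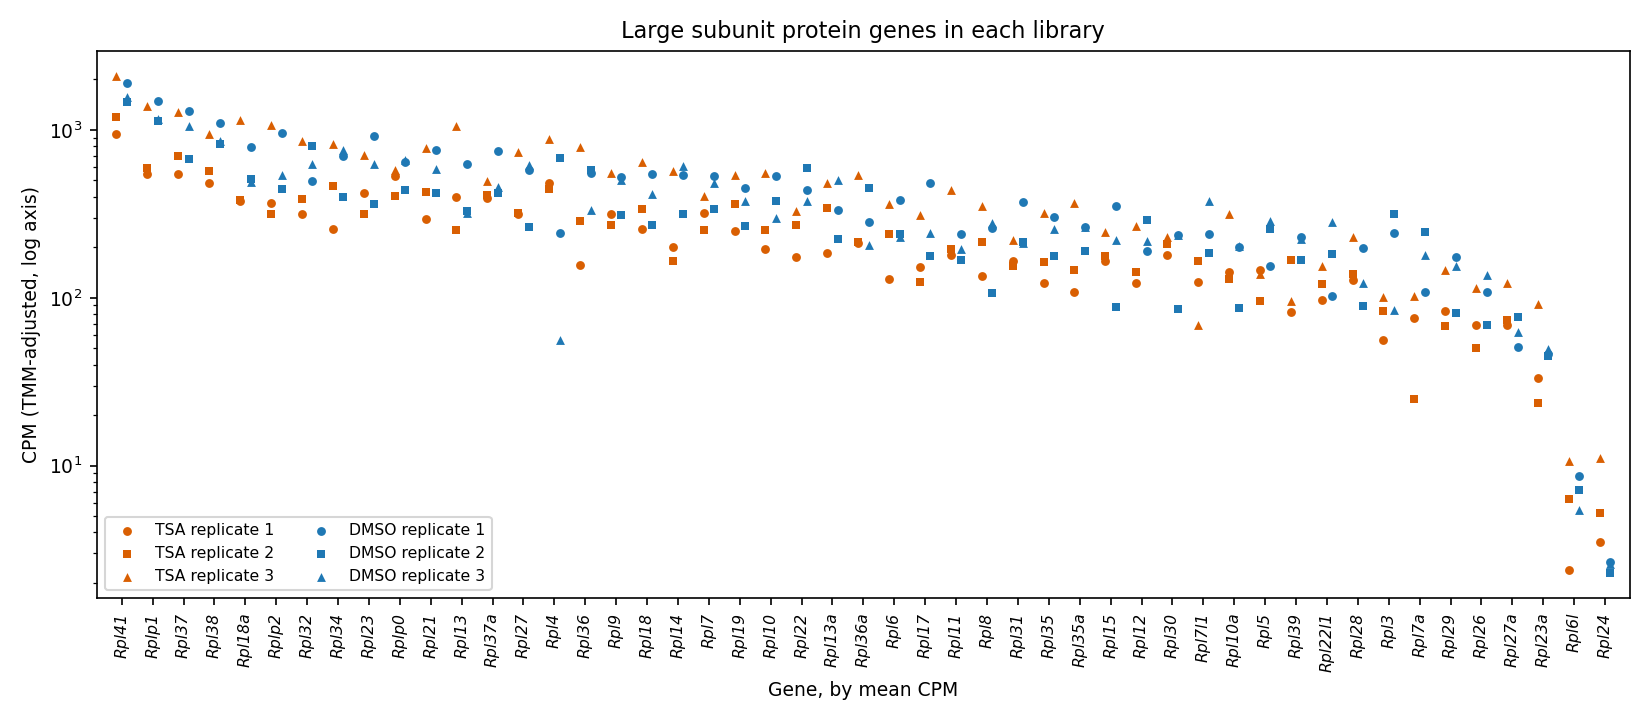
CPM of the 49 large subunit protein genes that passed the filter, on a log axis, in the TSA libraries (orange, left) and the DMSO libraries (blue, right), with genes ordered by their mean. Rpl6l and Rpl24 stand at the low end, and the means of the other genes run from 48.0 CPM (Rpl23a) to 1532 CPM (Rpl41). Rpl4 has 1 DMSO library far below the others.

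The 3 stalk genes were all highly expressed. CPM are given here relative to the TMM-adjusted library total. Rplp1, an acidic stalk protein, had 549, 591 and 1389 CPM with TSA and 1482, 1130 and 1164 CPM with DMSO, a mean of 843 ± 473 against 1259 ± 194 (SD, n = 3 each). Its partner Rplp2 had 369, 314 and 1068 CPM with TSA and 961, 445 and 537 CPM with DMSO. In both genes TSA replicates 1 and 2 were lower than every DMSO library, whereas TSA replicate 3 lay within or above the DMSO range. Rplp0, the base of the stalk, had 532, 404 and 579 CPM with TSA and 648, 438 and 665 CPM with DMSO. The Rplp0 groups overlapped, and it had the lowest spread within groups of the 49 genes, a coefficient of variation (CV, pooled over both groups) of 19.9%.

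Levels per kilobase were taken over all annotated exonic bases of a gene. These can far exceed its longest coding transcript, as in Rpl41 with 1168 against 582 bases. The order per kilobase depends on this choice. Per kilobase of exon, Rplp1 was the highest gene, with 1689 CPM per kb in TSA and 2523 in DMSO cones. Rpl38 followed, with 1226 CPM per kb in TSA and 1722 in DMSO cones. Mutations of Rpl38 are known in mice for changes of the axial skeleton. It had 482, 570 and 942 CPM with TSA and 1105, 830 and 865 CPM with DMSO, with overlapping groups. Rpl41, which encodes the shortest protein of the subunit, was next per kilobase and the first in CPM. It had 952, 1192 and 2108 CPM with TSA and 1905, 1473 and 1563 CPM with DMSO, a mean of 1417 ± 610 against 1647 ± 228. The lowest and the highest library for Rpl41 were both TSA libraries. Rpl36 had 158, 285 and 789 CPM with TSA and 557, 574 and 335 CPM with DMSO, and Rpl32 had 317, 389 and 855 CPM with TSA and 494, 801 and 628 CPM with DMSO. In both genes TSA replicate 3 was the highest of all libraries.

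At the low end per kilobase were Rpl24, Rpl6l, Rpl27a, Rpl5 and Rpl3. Rpl24, whose mutation is known from the Belly spot and tail mouse, had 3.53, 5.21 and 11.2 CPM with TSA and 2.68, 2.28 and 2.60 CPM with DMSO. These levels rest on 50, 68 and 124 counts with TSA and 29, 24 and 29 with DMSO. Every TSA library was above every DMSO library. In the annotation 47.0% of the exonic bases of Rpl24 (chr16:55966275-55971435) overlap Gm28037 on the same strand, and 80.9% of its stretches of 75 bases, the read length, also occur in transcripts of other genes. How reads with several hits were counted is not given in the sources used here, so the level of Rpl24 is uncertain. Rpl6l had 2.40, 6.29 and 10.7 CPM with TSA and 8.68, 7.13 and 5.47 CPM with DMSO, with the lowest and the highest library both treated.

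Rpl27a, whose mutation is known for ataxia in mice, had 68.6, 73.3 and 123 CPM with TSA and 50.7, 76.9 and 62.8 CPM with DMSO. DMSO replicate 2 lay above TSA replicates 1 and 2, so the groups overlapped. Rpl5 carries the 5S RNA into the subunit and binds Mdm2 when assembly fails. It had 146, 95.7 and 139 CPM with TSA and 154, 257 and 287 CPM with DMSO, so the groups did not overlap. Rpl3, close to the site where the peptide bond forms, had 55.7, 83.6 and 101 CPM with TSA and 244, 314 and 84.1 CPM with DMSO. DMSO replicates 1 and 2 were above all TSA libraries, and DMSO replicate 3 was below TSA replicate 3. Of the 75-base stretches of Rpl5 and Rpl3, 92.5% and 83.2% occur in other genes.

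Ribosomal protein genes have many processed copies in the genome, and the sequence shared with other genes was followed over all 49 genes. A median of 43.6% of their 75-base stretches occurred in transcripts of other genes, between 1.4% (Rpl22) and 92.5% (Rpl5). In the 20 genes with at least 50% of shared stretches the median level was 85.8 CPM per kb, against 166 CPM per kb in the 29 other genes. Both medians use all annotated exonic bases as the length and depend on that choice. The Spearman correlation of the level with the shared percentage was -0.29 (n = 49 genes, which share libraries and copies). Whether reads were lost to copies was not tested. The 164 rows named as pseudogenes of these genes held 2.93, 2.64 and 2.54% of the counts of genes and pseudogenes together in TSA libraries and 2.26, 2.76 and 2.36% in DMSO libraries. Adding these rows to their genes left the number of calls at 0 and the median fold change at -0.23 on the log2 scale.

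Together the large subunit genes took 1.29, 1.39 and 2.19% of all gene counts in TSA libraries and 1.82, 1.89 and 1.73% in DMSO libraries. The means were 1.62 ± 0.494% with TSA and 1.81 ± 0.0817% with DMSO (SD, n = 3 each). TSA replicates 1 and 2 were below and TSA replicate 3 was above all DMSO libraries. In such bulk libraries fewer cells of a type and less RNA per cell cannot be told apart. The 95% Wilson interval of a single library was narrow, for example 1.28 to 1.30% for TSA replicate 1, and covers counting error only, since PCR copies were not told apart. The small subunit genes (32 of 32 passing the filter) likewise had TSA replicates 1 and 2 below and TSA replicate 3 above all DMSO libraries, with 1.01, 1.10 and 1.85% in TSA libraries and 1.68, 1.67 and 1.65% in DMSO libraries. The nuclear genes of the mitochondrial large subunit took 1.12, 1.07 and 1.75% with TSA and 1.36, 0.932 and 1.39% with DMSO.

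**Figure D2:**
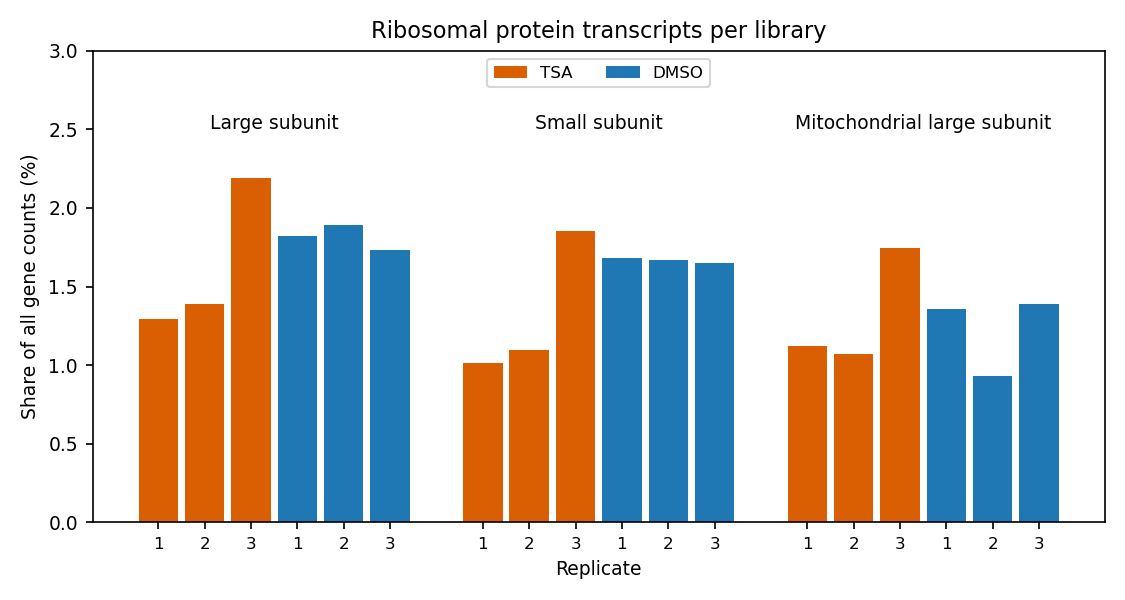
Share of all gene counts (%) taken by the genes of the large subunit, the small subunit and the mitochondrial large subunit in each TSA (orange) and DMSO (blue) replicate. For both cytosolic subunits TSA replicates 1 and 2 lie below and TSA replicate 3 above the 3 DMSO libraries.

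After TMM scaling, most of these genes deviated in the same direction within a library. Against the mean of each gene over the 6 libraries (log2 of CPM + 0.5), the median deviation was -0.55, -0.41 and 0.58 in TSA replicates 1, 2 and 3, and 0.45, -0.16 and 0.18 in DMSO replicates 1, 2 and 3. The number of the 49 genes above their own mean was 1, 9 and 44 for the TSA replicates and 41, 18 and 33 for those with DMSO. The single exception in TSA replicate 1 was Rpl4. The median CPM of the genes was 179, 216 and 402 with TSA and 373, 266 and 287 with DMSO. The number of genes over 1 CPM ran the other way within the TSA group, with 10795, 9100 and 6974 genes. TMM factors shift every gene of a library at once. They were 1.16, 1.10 and 0.882 for TSA replicates 1 to 3 and 0.806, 1.19 and 0.922 for DMSO replicates 1 to 3. The share of counts, which has no such factor, differed little within DMSO and was highest in DMSO replicate 2 (1.82, 1.89 and 1.73%). The parts of this scaling and of library composition in the levels were not tested.

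**Figure D3:**
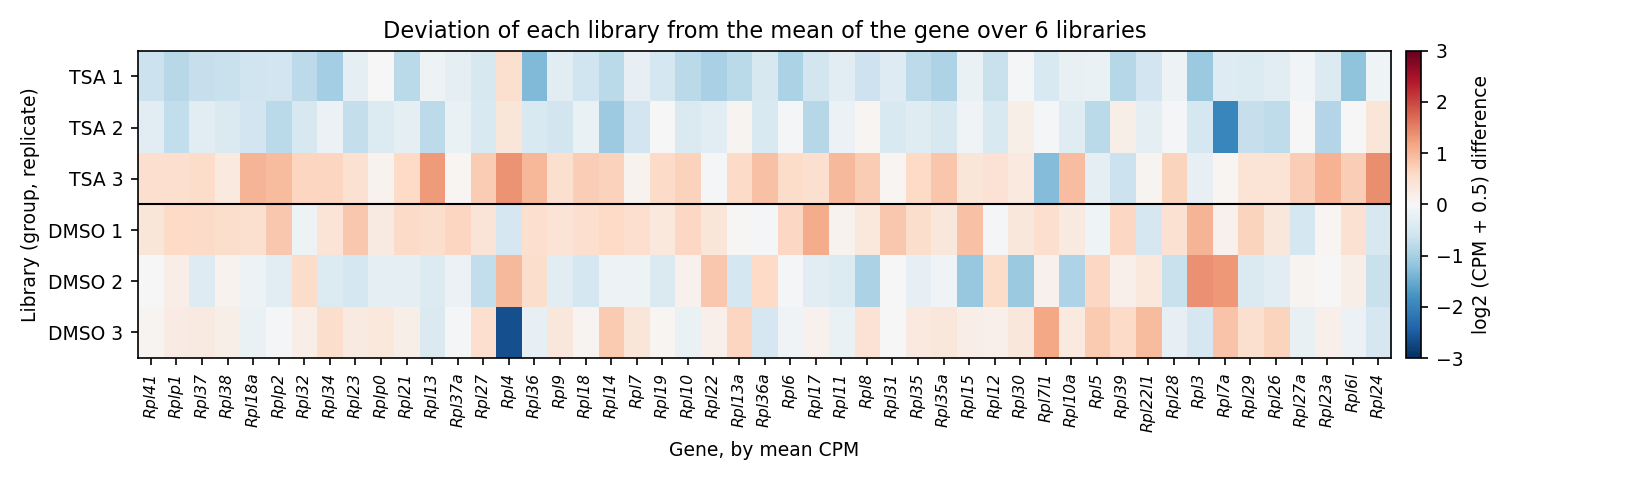
Deviation of each library from the mean of the gene over 6 libraries, as log2 (CPM + 0.5), with the TSA libraries above and the DMSO libraries below the line. TSA replicate 1 is low and TSA replicate 3 high in nearly all genes, and Rpl4 is above its mean in TSA replicate 1, while Rpl22, Rpl3, Rpl39, Rpl5 and Rpl7l1 are below theirs in TSA replicate 3.

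The order of the genes by level was similar in all libraries. The Spearman correlation between the profiles of the 49 genes was 0.887 to 0.905 among TSA libraries, 0.713 to 0.867 among DMSO libraries and 0.764 to 0.880 between groups. Over the 1671 genes averaging 100 CPM or more it was 0.517 to 0.732. These values are across genes, which are not independent replicates.

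The spread within groups was low for this data set. The median pooled CV of the 49 genes was 41.2%, between 19.9% (Rplp0) and 74.8% (Rpl4), against 96.0% for all genes tested and 52.0% for those averaging 100 CPM or more. A CV under 50% was found for 41 of the 49 genes (83.7%), for 17.2% of all genes tested and for 46.9% of the genes at 100 CPM or more. The median CV was 46.3% for small subunit genes and 61.4% for those of the mitochondrial large subunit. Within the groups, the 49 genes had a median CV of 46.3% with TSA and 31.2% with DMSO. The 60S assembly and export factors, which build the subunit without being part of it, had a median CV of 125%.

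**Figure D4:**
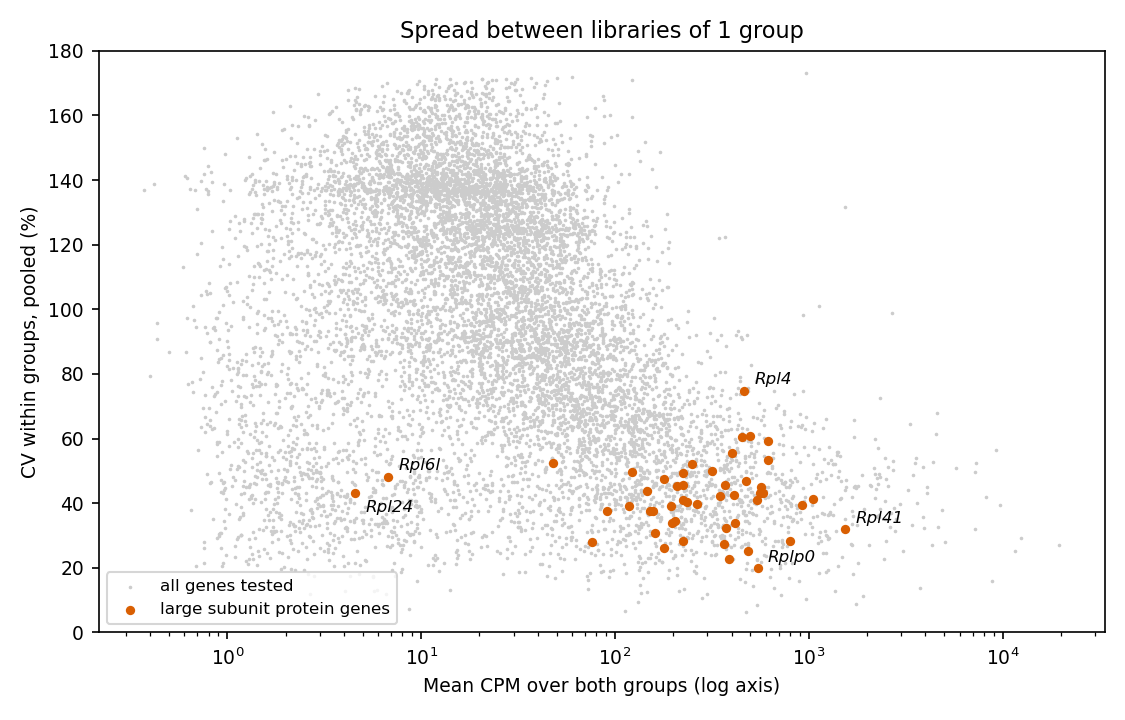
Pooled within-group CV (%) against the mean CPM (log axis) for all genes tested (grey) and the 49 large subunit protein genes (orange). The orange points lie between 19.9% and 74.8%, below most grey points.

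TSA was compared with DMSO for each gene by edgeR (quasi-likelihood, two-sided) across all 9621 genes. None of the 49 genes was called at an adjusted p under 0.05, as for all genes tested (0%). DESeq2 and weighted limma-voom called 0 of the 49 as well, where they called 8.90% and 0.385% of all that were tested. At an unadjusted p of 0.05 or less, again 0 of 49 were higher and 0 were lower, against 8.02% higher and 2.30% lower among all genes tested, 10.3% in either direction. Among the 1671 genes averaging 100 CPM or more, nearer to these genes in level, only 14 were higher and 10 lower. The 0 of 49 thus does not set these genes apart from other abundant genes. The DESeq2 Wald test and limma-trend also gave 0 of 49 at this unadjusted level, against 15.6% and 6.35% of all genes. Weighted limma-voom gave 5 lower genes (Rpl14, Rpl22, Rpl38, Rpl7a and Rplp1) and 0 higher ones. Of all genes, 12.4% were at this level with it in either direction.

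Log2 fold changes (TSA over DMSO) were below 0 for 35 and above 0 for 14 of the 49 genes. Their median was -0.23, against 0.02 for all genes tested and -0.10 for those at 100 CPM or more, but turned to 0.048 without TSA replicate 1 (28 genes above and 21 below 0). A scaling to the ribosomal protein counts, which centres these genes by construction, gave 0.10, beside 0.50 for all genes. Without TSA replicate 3 it was -0.75, with 45 genes below 0. The median standard error of a single gene was 0.61. For a single gene, a fold change of that size could not be told from 0 with these libraries.

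**Figure D5:**
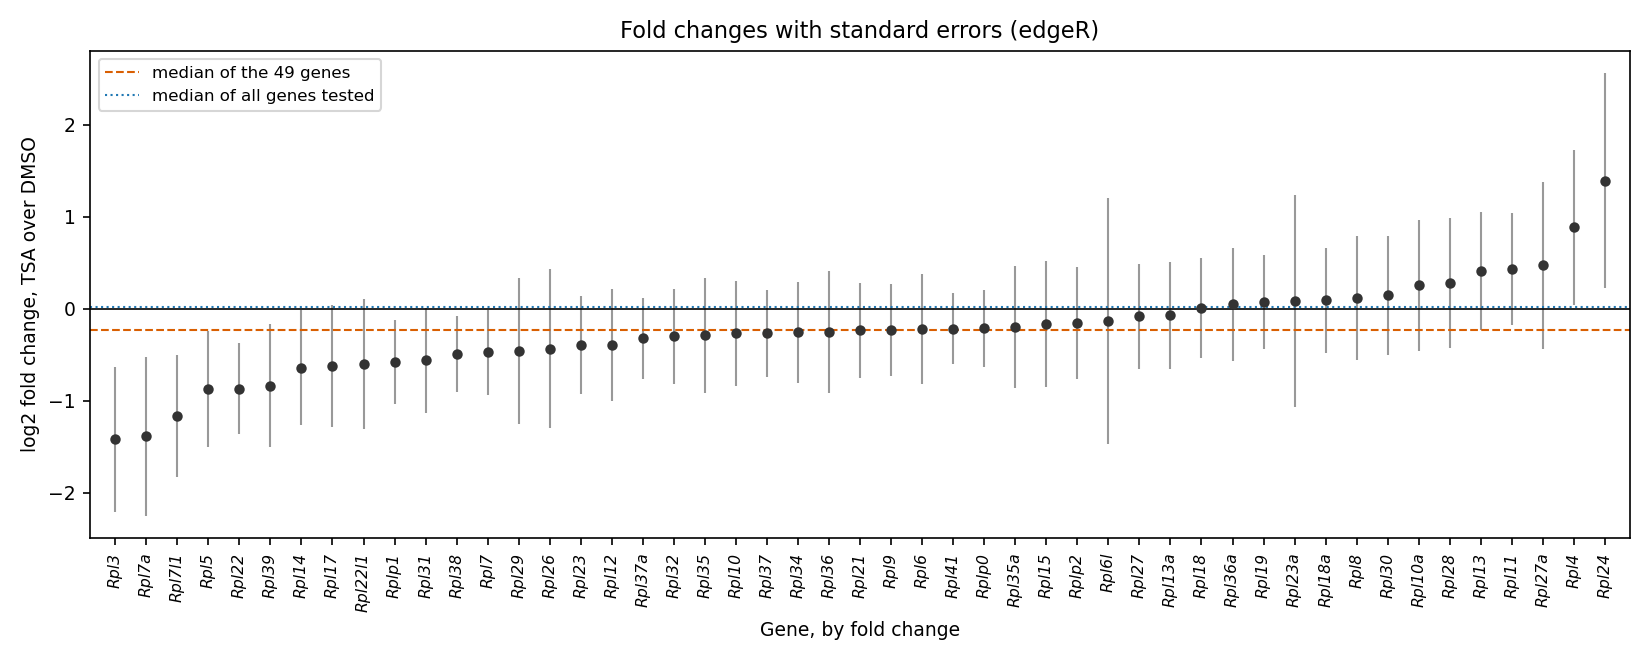
Log2 fold change (TSA over DMSO, edgeR) of the 49 large subunit protein genes, with bars of 1 standard error, ordered by value. Values run from -1.42 (Rpl3) to 1.39 (Rpl24), and the median of -0.23 (dashed) turns to 0.048 without TSA replicate 1 (a scaling to the ribosomal protein counts, which centres these genes by construction, gave 0.10, beside 0.50 for all genes).

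The 5 genes whose libraries did not overlap between the groups were 1 higher gene (Rpl24) and 4 lower genes (Rpl5, Rpl7a, Rpl7l1 and Rpl22), against 6.37% higher, 3.71% lower and 10.1% in all among all genes tested. The smallest unadjusted p of the 49 genes, 0.111 in edgeR, was that of Rpl3 (log2 fold change -1.42, SE 0.79), which reached 0.0330 without DMSO replicate 3. Rpl7a, with 75.9, 25.0 and 103 CPM in TSA and 108, 246 and 179 CPM in DMSO cones, had a log2 fold change of -1.39 (SE 0.86). The lowest value of Rpl7a was in TSA replicate 2, and 64 other genes share stretches of 75 bases with it. Rpl24 had a log2 fold change of 1.39 (SE 1.17).

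The gene with the widest spread was Rpl4, whose protein lines part of the exit tunnel. It is named here because of its values. Rpl4 (chr9:64173375-64178666) had 6884, 5788 and 9768 counts in TSA libraries and 2637, 7142 and 622 counts in DMSO libraries. This corresponds to 486, 444 and 878 CPM with TSA and 244, 679 and 55.7 CPM with DMSO. DMSO replicate 2 lay among the TSA libraries, and DMSO replicate 3 was far below the rest. Only 8.5% of its 75-base stretches occur in another gene. The log2 fold change was 0.89 (SE 0.84), and 1.97 without DMSO replicate 2, where Rpl4 had an unadjusted p of 0.0451 in edgeR. Rpl14, another gene named for its values, had 202, 166 and 573 CPM with TSA and 536, 317 and 611 CPM with DMSO, and a log2 fold change of -0.64 (SE 0.62). It was at an unadjusted p of 0.05 or less in edgeR without TSA replicate 3, as was Rplp1.

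Paralog pairs were compared next, since some paralogs can replace each other in the ribosome. For Rpl3, Rpl10 and Rpl39 only the common gene passed the filter in these cones. Rpl10, which joins the subunit late in its assembly, had 196, 254 and 553 CPM with TSA and 530, 379 and 299 CPM with DMSO, and 84.9% of its 75-base stretches occur in other genes. Rpl39, a small protein of the exit tunnel, had 82.7, 169 and 95.2 CPM with TSA and 230, 167 and 223 CPM with DMSO. The Rpl10 groups overlapped widely. The Rpl39 groups overlapped only through TSA replicate 2 and DMSO replicate 2, with a log2 fold change of -0.84 (SE 0.67).

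Both members of the Rpl22 and Rpl7 pairs were expressed. Rpl22, known for its role in T cell development, had 174, 272 and 330 CPM with TSA and 439, 597 and 379 CPM with DMSO, without overlap. Its mean was 259 ± 78.8 CPM against 471 ± 113 CPM (SD, n = 3 each), with a log2 fold change of -0.87 (SE 0.49). Rpl22l1, its paralog, had 97.3, 122 and 155 CPM with TSA and 102, 182 and 282 CPM with DMSO. Both genes had lower means with TSA, at 62.7 CPM per kb for Rpl22l1 against 88.8 for Rpl22 in TSA cones and 94.9 against 162 in DMSO cones. Which of both is higher per kilobase depends on the length used. The exonic bases were 1989 for Rpl22l1 and 2911 for Rpl22, and the longest coding transcripts have 552 and 2051 bases.

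Rpl7 had 319, 253 and 402 CPM with TSA and 532, 337 and 481 CPM with DMSO, and its groups overlapped. The related Rpl7l1 had 124, 166 and 68.6 CPM with TSA and 241, 184 and 380 CPM with DMSO, without overlap. Its mean of 120 ± 48.8 CPM with TSA stood against 268 ± 100.4 CPM with DMSO, a log2 fold change of -1.17 (SE 0.66). Rpl7l1 was lowest in TSA replicate 3, where 44 of the 49 genes were above their own mean. Whether Rpl7l1 takes the place of Rpl7 in the ribosome cannot be read from mRNA levels. In neither pair was a gene called, and fold changes of the paralogs were not tested against each other.

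Related families were read in the same fit. Of the 32 small subunit genes 26 had a log2 fold change below 0 and none was at an unadjusted p of 0.05 or less in edgeR. In alternatives 9 were lower at that level with limma-voom, 6 without TSA replicate 3, and 1 each with limma-trend and without TSA replicate 2. Of all genes, 12.4, 9.57, 6.35 and 7.67%, in this order, were at that level in either direction. Their median was -0.47, and -0.15 without TSA replicate 1 and -0.91 without TSA replicate 3. The lowest p in this family, 0.0675 in edgeR, was that of Rps15a, with 1375, 2509 and 826 counts in TSA and 2810, 3096 and 4128 counts in DMSO libraries. The mitochondrial large subunit genes had a median log2 fold change of 0.16 (48 tested, 27 above 0), which was 0.44 without TSA replicate 1 and -0.45 without TSA replicate 3. Those of the mitochondrial small subunit had one of -0.19 (27 tested), which was -0.07 without TSA replicate 1 and -0.54 without TSA replicate 3. Neither family had a gene at that level in the main edgeR fit. With the newer quasi-likelihood method of edgeR, 3 mitochondrial large subunit genes were higher. In the mitochondrial small subunit 1 gene was higher and 1 lower with that method. It put 10.4% of all genes at that level in either direction. Some other alternatives also gave genes of these families at that level. Of 32 assembly and export factors 1 was higher and 1 lower at the unadjusted level, and each of both passed the filter only through the group in which it was high, so the counts are no more than a description. Gnl2, a GTPase of the nucleolus, had 644, 1232 and 536 counts with TSA and 0, 28 and 1 with DMSO. Nop2, which methylates the large ribosomal RNA, had 0, 0 and 3 counts with TSA and 249, 184 and 0 with DMSO. Neither gene was called after adjustment in edgeR, where their adjusted p was 0.423 and 0.469.

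Elongation factors (8 tested) had a median log2 fold change of -0.33, which ran from -0.87 without TSA replicate 3 to 0.32 without DMSO replicate 1. Other transcripts with a TOP tract (24 tested) had one of -0.08, which ran from -0.41 without DMSO replicate 3 to 0.12 without TSA replicate 1. None of these genes was at an unadjusted p of 0.05 or less in the main edgeR fit. Regulators of ribosomal protein synthesis (16 of 20 tested) had a median of -0.22, which ran from -0.86 without DMSO replicate 1 to 1.10 without DMSO replicate 2. They likewise had no gene at that level in the main fit. The direction of these 3 medians thus rested on single libraries. Without a filter, edgeR gave 1 lower elongation factor and 1 lower regulator at the unadjusted level, where 9.35% of all genes were in either direction. DESeq2 gave 1 lower regulator, at 15.6% of all genes in either direction. Mtor, the kinase that acts on TOP mRNAs, had 10, 3 and 2 counts with TSA and 101, 143 and 0 counts with DMSO. Mtor was under 1 CPM in 4 of the 6 libraries.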

How the data were processed

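Cones were profiled with the SMART-Seq v4 kit, with 17 PCR cycles for the cDNA and 11 for the library, and single reads of 75 bases. Trimming, alignment to GRCm38 (STAR 2.5.4a) and counting by gene on the Ensembl annotation (Subread 1.6.0) were done by the authors. The strand and multimapping settings are not given in the sources used here, so reads of close copies and of overlapping genes may be shared or lost. The deposited table holds raw counts. A second deposited table with the authors' own comparison was not used.

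The 9621 genes that exceeded 1 CPM in 2 or more libraries of a group were tested with edgeR 4.0.16 (glmQLFit, glmQLFTest, two-sided) in R 4.3.3 with TMM factors and Benjamini-Hochberg adjustment over all of them. Of the gene IDs, 98.2% were found in GENCODE M21. The depth puts 1 CPM at about 9 to 14 counts. Alternatives used limma 3.58.1, DESeq2 1.42.0, other scalings and filters, and each library left out.

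Values in every library are given for the 5 highest and 5 lowest genes per kilobase, paralog pairs, stalk genes, Rpl41 and up to 4 genes of smallest p per related family. Rpl4, Rpl14 and Rpl7a were named after their values were seen. Some genes of this rule and of the marker lists are not reported here. The genes and lists were chosen with earlier results of these data known.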

Additional observations from a re-analysis of the deposited data

How the results depend on the processing

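No large subunit gene was called at an adjusted p under 0.05 in edgeR, DESeq2 or limma under any alternative, where DESeq2 called 856, limma-voom 37 and edgeR without a filter 11 of all genes, and the others 0. At an unadjusted p of 0.05 or less, the count of lower genes, 0 in edgeR, was 5 with limma-voom and quality weights, 2 without TSA replicate 3 and 1 without DMSO replicate 3, and the count of higher genes was 1 without DMSO replicate 2, where 12.4, 9.57, 7.29 and 9.58% of all genes, in this order, were at that level in either direction. The cause was not tested. Leaving out single libraries gave counts of 0 to 2 lower and 0 to 1 higher genes, and a median log2 fold change of -0.75 to 0.048. The range of single genes over these fits was -0.67 to 0.053 for Rpl41, -1.21 to 0.17 for Rpl36, -0.77 to 0.31 for Rpl6l, -0.89 to 0.048 for Rpl10 and -0.96 to 0.20 for Rplp2, lowest without TSA replicate 3 in each.

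The median of the 49 genes, beside that of all genes tested, was -0.10 and 0.13 with upper quartile factors, -0.15 and 0.15 with library totals, -0.63 and 0.58 with limma-voom, -0.31 and 0.36 with limma-trend and 0.10 and 0.50 when scaled to the ribosomal protein counts. The mean share of counts with DMSO was 1.95% of the TMM-adjusted total. With ribosomal protein scaling, which centres these genes by construction, 31 of the 49 genes were above 0 and 18 below. Among the genes described singly above, the log2 fold change turned to 0.11 for Rpl41, Rpl6l and Rplp2, 0.0087 for Rpl10 and 0.26 for Rplp0. Rpl41, Rpl36, Rpl6l, Rpl10 and Rplp2 (0.14) also turned above 0 without TSA replicate 1 and Rplp2 without TSA replicate 2 (0.17) or DMSO replicate 1.

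Same-numbered libraries did not deviate together (r = -0.01, 0.07 and 0.04 over all genes tested). With 3 libraries a group these values cannot decide whether the numbers pair the samples, and the labels do not say so. With the replicate block 0 genes of the large subunit were at an unadjusted p of 0.05 or less in edgeR, and their median was -0.31, beside 0.32 for all genes. The newer quasi-likelihood method of edgeR was added after seeing the data and gave 0 calls and a median of -0.24. With a common CV of 147% over all genes tested and 3 libraries a group, small differences were not detectable.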
